A study of Mus musculus with 6 samples.

Results

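The genes described here are 35 mouse genes of fatty acid oxidation, chosen by symbol from the 54838 genes in the deposited tables. They comprise 6 genes of the carnitine shuttle, 17 of mitochondrial beta-oxidation, 3 of electron transfer and 9 of peroxisomal oxidation, and these 4 steps are compared with each other. All 35 had enough reads to be tested. They were chosen by name and pathway, not by their change, but earlier results of the same data were known at that point.

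Long-chain fatty acids reach the mitochondrial matrix through the carnitine shuttle, in which an acyl group is passed from coenzyme A to carnitine at the outer membrane, carried across the inner membrane and handed back to coenzyme A. Each round of beta-oxidation then removes an acetyl-CoA by dehydrogenation, hydration, a second dehydrogenation and thiolysis, and the electrons of the first step enter the respiratory chain through the electron transfer flavoprotein. Peroxisomes shorten very long-chain and branched-chain acyl groups by a parallel route with its own enzymes and hand the products on to mitochondria.

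RNA was sequenced from B16F10 cells, a pigmented mouse melanoma line, in 3 libraries from cells given the vehicle DMSO and 3 from cells given 10 µM GSK126, a drug that blocks the histone methyltransferase EZH2 of the PRC2 complex. No genetic alteration is named for either group, all libraries come from 1 cell line, and the sources used here do not give the length of treatment. Whether replicates came from separate cultures is not stated in the labels. The p-values, standard errors and intervals below therefore reflect only how these 6 samples vary, which may be technical variation. By its title, the study concerns lipid metabolism and how sensitive these cells are to an EZH2 inhibitor.

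The libraries held 13594939 to 14713373 counts. The 8 melanocyte markers summed to 22388 to 23631 CPM (counts scaled to library size) with DMSO and 23781 to 25037 with GSK126. That sum hides opposite changes, since 4 of the 8 rose and 1 fell by edgeR. Of all tested genes 5.87% rose and 5.18% fell by the same test. The other 3 markers did not pass, and by sign the 8 split into 4 positive and 4 negative values. Mitf, the lineage's master regulator, rose by 0.60 on the log2 scale (adjusted p = 0.00101 by edgeR), Pmel, Sox10 and Dct by 0.28, 0.17 and 0.15, and Mlana had a log2 fold change of -0.28 (edgeR adjusted p = 0.0245). Sums were 2.15 to 3.41 and 3.26 to 4.46 CPM for 5 immune markers (1 at 0 in every library), 22.7 to 25.6 and 17.1 to 21.8 for 5 fibroblast markers (nearly all Col1a2), and below 1 for endothelial, keratinocyte and adipocyte markers, of which 3 of 4, 3 of 4 and 2 of 4 were at 0 throughout. The part of these differences in the results below was not tested. Ezh2 itself had 189 ± 4.84 CPM with DMSO and 193 ± 3.47 with GSK126 (SD, n = 3), a log2 fold change of 0.03 ± 0.04 SE (edgeR adjusted p = 0.669). On the second principal component, which held 18.7% of the variance, GSK126 replicate 3 lay at 17.3 and the other GSK126 libraries at -10.7 and -11.6.

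Among the 35 genes, 1 rose with GSK126, none fell and 34 did not pass the test (edgeR quasi-likelihood test, Benjamini-Hochberg adjusted over 13601 tested genes, threshold 0.05). The gene that rose was Acad10, an acyl-CoA dehydrogenase family member. Over all tested genes the share called was 11.1%, with 5.87% higher and 5.18% lower. At an unadjusted p under 0.05 the counts were 7 higher and 1 lower of 35, beside 14.4% and 13.1% of all tested genes, and DESeq2, limma-voom and edgeR with another scaling each called Acad10 alone. In bulk RNA, fewer cells that express a gene and less of its RNA per cell cannot be told apart.

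The 95% intervals show how large a change these libraries leave room for. The interval lay inside 1.5-fold in either direction for 30 of the 35 genes, beside 66.6% of all tested genes. The exceptions were Cpt1b, Acadsb, Acad10, Hadhb and Acot2, and for Cpt1b and Acadsb it reached beyond 2-fold. For most of the pathway the difference between these 6 samples was therefore bounded closely, although a p that misses the threshold does not show that the levels were equal. The intervals rest on the same spread between replicates as the p-values. If that spread is only technical, they do not bound the effect of the drug in other cultures.

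**Figure D1:**
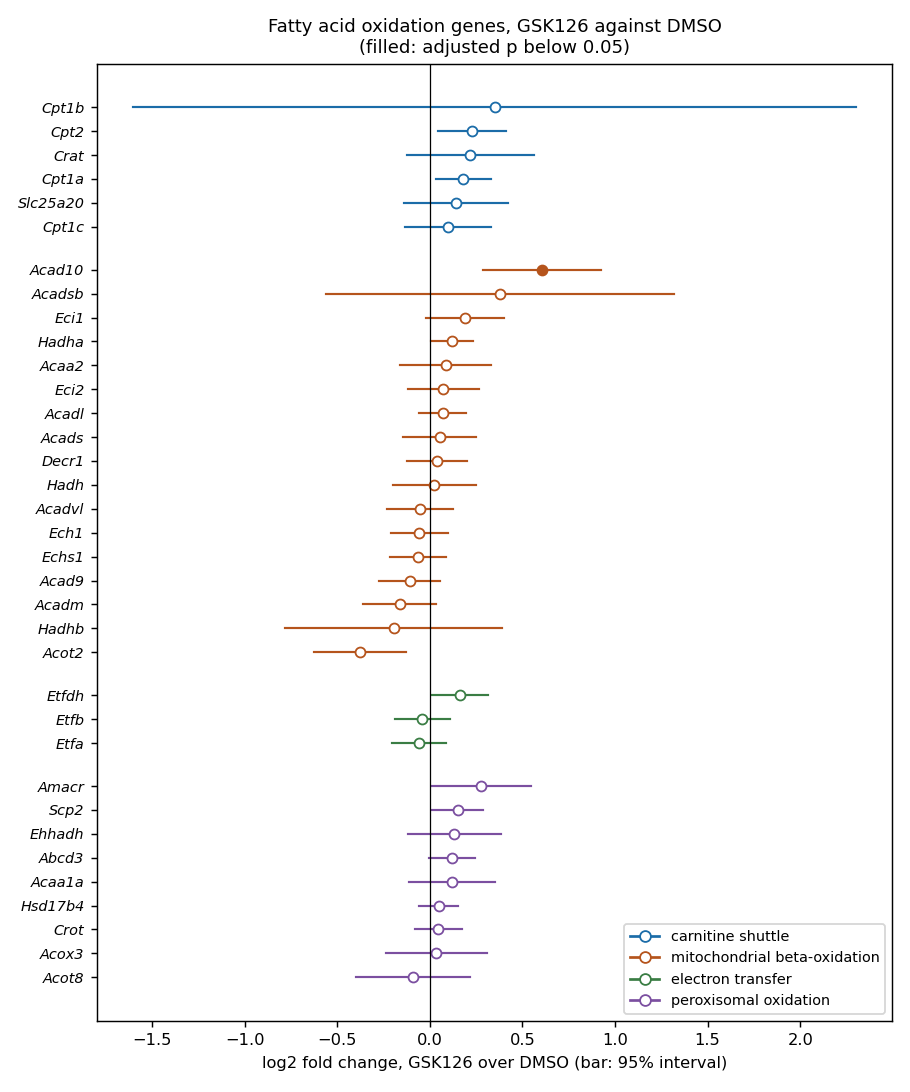
Log2 fold change of each gene, GSK126 over DMSO (horizontal axis), with its 95% interval from the edgeR fit; genes are grouped by step and filled circles mark adjusted p below 0.05. Only Acad10, at 0.61, is filled, and the bars of Cpt1b and Acadsb are the widest.

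Small positive differences outnumbered negative ones. The log2 fold change was above 0 for 25 of 35 genes, beside 49.9% of all tested genes, and the median was 0.07 with a range from -0.38 to 0.61, beside a median of -0.00048 over all tested genes. The count of positive values was 23 to 27 when each library was left out in turn. The values of the DMSO and GSK126 libraries did not overlap for 11 genes, 10 higher and 1 lower with GSK126. Over all tested genes 34.4% did not overlap, 17.6% higher and 16.8% lower, so the total count is near the background.

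Set side by side, the 4 steps gave these counts and medians of the log2 fold change. All 6 carnitine shuttle genes and 8 of 9 peroxisomal genes had positive values, with medians of 0.20 and 0.12. The highest shuttle value, 0.35 (SE 0.83), was that of Cpt1b at 2 to 50 reads. With limma-voom, without DMSO replicate 2 or without GSK126 replicate 1, 5 of the 6 shuttle genes were positive. Mitochondrial beta-oxidation had 10 positive and 7 negative values with a median of 0.04, and electron transfer had 1 positive and 2 negative with a median of -0.04. These medians describe the lists and carry no test, so a difference between the steps was not tested. Without GSK126 replicate 1 the medians of mitochondrial beta-oxidation and electron transfer moved to -0.01 and 0.01, and without DMSO replicate 2 those of the shuttle and the peroxisomal genes moved to 0.12 and 0.05.

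**Figure D2:**
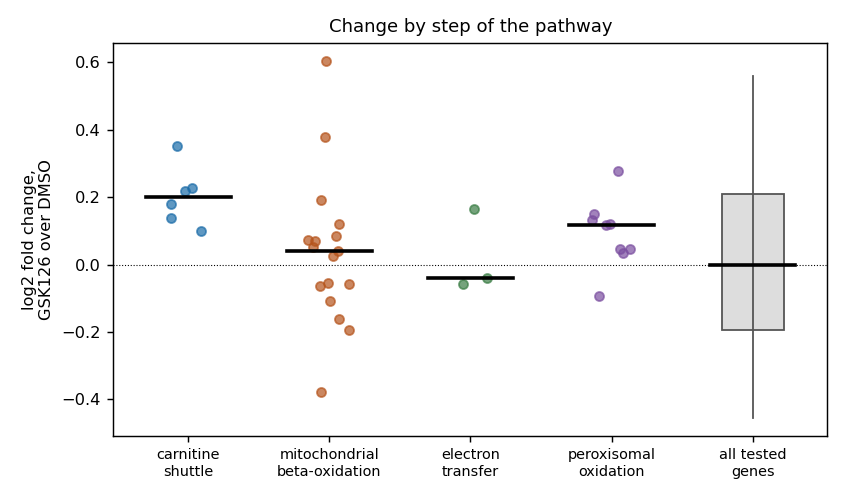
Log2 fold change, GSK126 over DMSO, of each gene by step (points) with the median of the step (bar), beside all tested genes (box from the 20th to the 80th percentile, line from the 5th to the 95th, bar at the median). The shuttle points all lie above 0, between 0.10 and 0.35, and the mitochondrial points spread from -0.38 to 0.61. The highest shuttle point is Cpt1b, at 2 to 50 reads in a library.

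Levels between genes were read as FPKM, fragments scaled to gene length and library size. Which gene lengths the deposited FPKM rest on is not stated in the labels or headers. Those implied by counts and FPKM were 0.996 to 7.15 times the longest protein-coding GENCODE M21 transcript of the gene, and over 2 times for 22 of the 35, so levels between genes depend on the length used, while changes within a gene do not. The summed FPKM of the 6 shuttle genes was 28.2, 26.8 and 28.9 in the DMSO libraries and 32.0, 32.5 and 30.6 in the GSK126 libraries, a ratio of means of 1.13. The 9 peroxisomal genes summed to 86.7, 81.6 and 85.7 with DMSO and 92.4, 89.0 and 92.2 with GSK126, a ratio of 1.08. In both steps every GSK126 library lay above every DMSO library. The same held with the longest transcript as the length, where the ratios were 1.13 and 1.07, but this only reweights the same counts. Of single tested genes 17.6% were higher in every GSK126 library by CPM, but a sum over several genes is not comparable to a single gene. How often sums over other lists of genes lie apart was not tested. Of the mean shuttle sum, Cpt1a alone gave 12.5 of 28.0 with DMSO and 14.2 of 31.7 with GSK126. The sums of mitochondrial beta-oxidation, 209 ± 5.97 and 216 ± 8.02, and of electron transfer, 99.6 ± 2.05 and 97.9 ± 3.96 (SD, n = 3), overlapped between the groups.

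The 4 steps were far from equal in abundance. Mitochondrial beta-oxidation made up 49.6% of the summed FPKM of the 35 genes with DMSO and 49.4% with GSK126. Its 3 electron transfer partners made up 23.6% and 22.4%, the peroxisomal genes 20.1% and 20.9%, and the shuttle 6.63% and 7.26%. With the longest transcript as the length, the order of the steps was the same and the DMSO shares were 47.8%, 26.3%, 19.5% and 6.40%. The mean deposited FPKM over all libraries was highest for Acadl (71.5), followed by Etfa (53.7), Etfb (34.7), Hsd17b4 and Hadha (20.8). Per kilobase of the longest transcript the order at the top was Etfb (97.6), Etfa (84.7), Acadl (76.1) and Hadha (55.5), so which gene leads was not settled. Hadhb, at 173 to 368 reads, enters these levels without the 1410 to 1484 reads of its near-identical copy Gm13910. Its rank and the share of its step are therefore uncertain as well. The deposited FPKM was lowest for Cpt1b (0.47), then Acad10 and then Acox3 (1.16), and these 3 were lowest with either length.

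**Figure D3:**
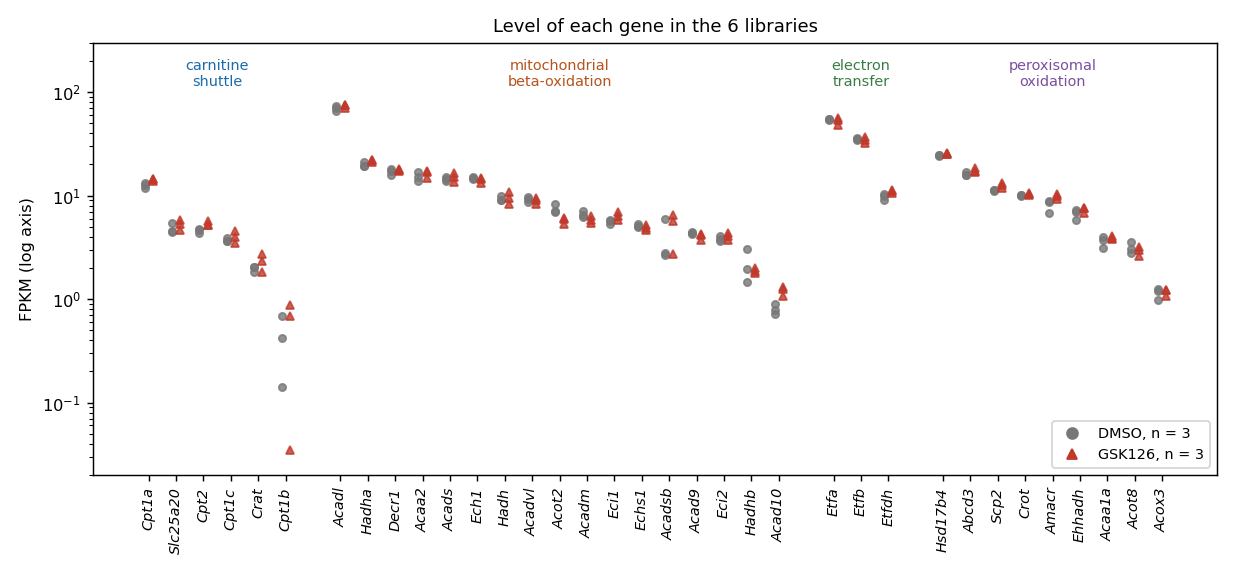
Deposited FPKM of each gene in each of the 6 libraries on a log axis, grouped by step and ordered by mean level within it (grey circles, DMSO; red triangles, GSK126; n = 3 each). On this scale Acadl is highest, with a mean of 71.5, and the points of Cpt1b, Acadsb and Hadhb scatter more within a group than those of their neighbours.

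The shuttle begins with carnitine palmitoyltransferase 1, the malonyl-CoA-sensitive enzyme of the outer membrane, which has a liver and a muscle isoform. The related brain gene Cpt1c is listed with this step by name, and whether it acts in the shuttle was not tested. The liver isoform Cpt1a (chromosome 19, 3323301-3385732, GRCm38) had the highest deposited FPKM of the shuttle, with 12.5 ± 0.665 FPKM with DMSO and 14.2 ± 0.387 with GSK126 (SD, n = 3), although per kilobase of the longest transcript Slc25a20 was above it (14.8 against 13.3 over all libraries). Its DMSO libraries held 56.4, 50.8 and 54.5 CPM and its GSK126 libraries 58.9, 62.4 and 62.0, with no overlap. The log2 fold change was 0.18 (SE 0.06, 95% interval 0.03 to 0.33) and did not pass the adjusted threshold (adjusted p = 0.117 by edgeR). Cpt1c had the smallest difference of the step, with 33.5, 31.4 and 31.9 CPM against 38.8, 30.3 and 34.6 (log2 fold change 0.10 ± 0.10 SE, edgeR adjusted p = 0.568). Its groups overlapped.

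The muscle isoform Cpt1b (chromosome 15, 89416405-89425863) was barely expressed. It had 23, 8 and 37 reads in the DMSO libraries and 50, 40 and 2 in the GSK126 libraries. The libraries of one group thus spanned the whole range of the other, and the interval of its log2 fold change of 0.35 ran from 0.33-fold to 4.93-fold. Its sign turned without GSK126 replicate 1 (-0.21), without DMSO replicate 2 (-0.07) and with limma-voom (-0.24). Of its 50-base stretches, 80.4% are also in the annotated gene Gm44502 on the same strand, with which it shares 2744 exon bases, and the summed counts of both gave 0.71 (SE 0.47, adjusted p = 0.375 by edgeR).

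The inner membrane steps use Slc25a20, the carnitine-acylcarnitine carrier, and Cpt2, which re-forms acyl-CoA in the matrix. Cpt2 (chromosome 4, 107903981-107923610) held 22.8, 25.2 and 24.97 CPM with DMSO and 29.9, 27.7 and 27.8 with GSK126. The groups did not overlap, and the log2 fold change of 0.23 (SE 0.08, interval 0.04 to 0.41) did not pass the threshold (adjusted p = 0.109 by edgeR). Slc25a20 held 23.1, 23.6 and 28.6 CPM against 27.8, 30.7 and 24.4, with overlapping groups (0.14, SE 0.12, adjusted p = 0.497 by edgeR). The last gene of the step, Crat, encodes carnitine acetyltransferase, which buffers acetyl groups, and its log2 fold change was 0.22 (SE 0.15).

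Mitochondrial beta-oxidation starts with acyl-CoA dehydrogenases that differ in the chain length they accept. Acadl, the long-chain enzyme (chromosome 1, 66830839-66863277), had the highest deposited FPKM of the 35 genes, at 69.7 ± 3.57 FPKM with DMSO and 73.4 ± 2.19 with GSK126. Its libraries held 142, 135 and 151 CPM and 151, 153 and 145 CPM, and the groups overlapped. The log2 fold change of 0.07 (SE 0.05) had an interval of -0.06 to 0.20, a narrow bound on its change (adjusted p = 0.447 by edgeR).

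Acad10 (ENSMUSG00000029456, minus strand of chromosome 5, 121621026-121660514) was the gene that passed. It had 77, 87 and 97 reads in the DMSO libraries and 148, 147 and 124 in the GSK126 libraries, or 5.66, 6.19 and 7.19 against 10.3, 9.99 and 8.65 CPM. Every GSK126 library was above every DMSO library. The log2 fold change was 0.61 (SE 0.13), a 1.52-fold rise with an interval of 1.22 to 1.89 (adjusted p = 0.0324 by edgeR). Although it rose, it remained one of the least abundant of the 35 genes, at 0.793 ± 0.0934 FPKM with DMSO and 1.21 ± 0.117 with GSK126.

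The Acad10 call rests on few reads and several libraries. It ended when DMSO replicate 1, DMSO replicate 2, GSK126 replicate 1 or GSK126 replicate 2 was left out (adjusted p = 0.106, 0.105, 0.0983 and 0.0942 by edgeR), and it held without either replicate 3. It also ended without a filter on low counts (adjusted p = 0.0589 by edgeR). On the log2(FPKM + 1) scale, which compresses low values, the difference was 0.30.

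The start of Acad10 lies 49 bases from that of Brap, a gene on the opposite strand. Brap had a log2 fold change of -0.03 (SE 0.06, adjusted p = 0.791 by edgeR). The RefSeq stretch around the Acad10 start (GRCm38.p6, chr5:121660501-121660562, minus strand) holds a match to GCGCATGCGC, a form of the nuclear respiratory factor 1 site, shown in capitals.
Acad10 start region: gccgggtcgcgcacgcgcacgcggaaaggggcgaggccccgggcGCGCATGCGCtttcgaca

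Windows of 300 bases around the start, 250 before and 50 after, were matched in the RefSeq promoter table for 28 of the 35 genes. Cpt1b, Crat, Acad9, Acaa2, Decr1, Hsd17b4 and Amacr were not matched. The letters GCGCATGCGC, searched on both strands, were in the windows of Acad10 and Etfdh, 7.14% of the 28, and in 1.07% of the 27025 windows of all genes. The direct repeat AGGTCANAGGTCA, bound by PPAR and RXR dimers, was in none of the 28 and in 0.0481% of all, and the estrogen-related receptor site TNAAGGTCA, which shares the letters AGGTCA with it, in none and in 1.43%. The E-box CACGTG was in none of the 28 and in 8.09% of all, and CCAAT was in 12 (42.9%) and in 41.1%. All 28 are tested genes, while the 27025 windows include genes with too few reads to be tested here. The shares are thus of unlike sets, and a difference between them was not tested. A match is a description of letters and not a bound site, and the absence of these letters from a window of this length says nothing about the factor.

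Acad10 also resembles a neighbouring family member, Acad12. Their transcripts are 96.1% identical over an aligned stretch of 1598 bases, and 20.2% of the 50-base stretches of Acad10 are in Acad12. Acad12 had 8.45, 7.61 and 6.15 CPM with DMSO and 7.05, 7.68 and 8.93 with GSK126 (log2 fold change 0.09 ± 0.16 SE, edgeR adjusted p = 0.749). The counts of both genes summed rose by 0.35 on the log2 scale (SE 0.08, adjusted p = 0.0307 by edgeR), a smaller change than that of Acad10 alone. The sources used here do not say how reads that match both genes were counted.

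Acot2 encodes the mitochondrial acyl-CoA thioesterase that releases free fatty acids from acyl-CoA (plus strand of chromosome 12, 83987861-83993873). It had the lowest log2 fold change of the 35 genes. Its DMSO libraries held 18.2, 15.7 and 15.4 CPM and its GSK126 libraries 12.9, 11.6 and 13.4, all of them below the DMSO libraries. The log2 fold change was -0.38 (SE 0.11, interval -0.63 to -0.13), and it missed the adjusted threshold (adjusted p = 0.0638 by edgeR). The cytosolic thioesterase Acot1 (84009490-84018371), which follows Acot2 on the chromosome, was higher with GSK126, at 9.11, 7.68 and 9.63 CPM against 12.8, 12.6 and 12.3. Acot1 rose by 0.51 on the log2 scale (SE 0.11, adjusted p = 0.0302 by edgeR), a call that ended in each of the 6 fits with a library left out (adjusted p = 0.0541 to 0.0879).

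The thioesterase genes are close copies, which limits how their reads can be told apart. Their transcripts are 94.3% identical over 1330 aligned bases with 76 mismatches, and 24.5% of the 50-base stretches of Acot2 are in Acot1. The stretches below, from the coding part of the GENCODE M21 transcripts, cover 120 bases with 9 differences, which are in capitals.
Acot2 (transcript bases 237-356): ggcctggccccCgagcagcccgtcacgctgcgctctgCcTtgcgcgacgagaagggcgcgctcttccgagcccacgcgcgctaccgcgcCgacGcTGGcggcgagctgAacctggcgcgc
Acot1 (transcript bases 93-212): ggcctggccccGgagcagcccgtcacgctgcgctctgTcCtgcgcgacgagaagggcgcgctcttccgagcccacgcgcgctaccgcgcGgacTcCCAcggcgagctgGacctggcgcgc
With the counts of Acot2 and Acot1 summed, the log2 fold change was -0.0018 ± 0.08 SE (edgeR adjusted p = 0.991). How reads were assigned between the copies was not tested.

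**Figure D4:**
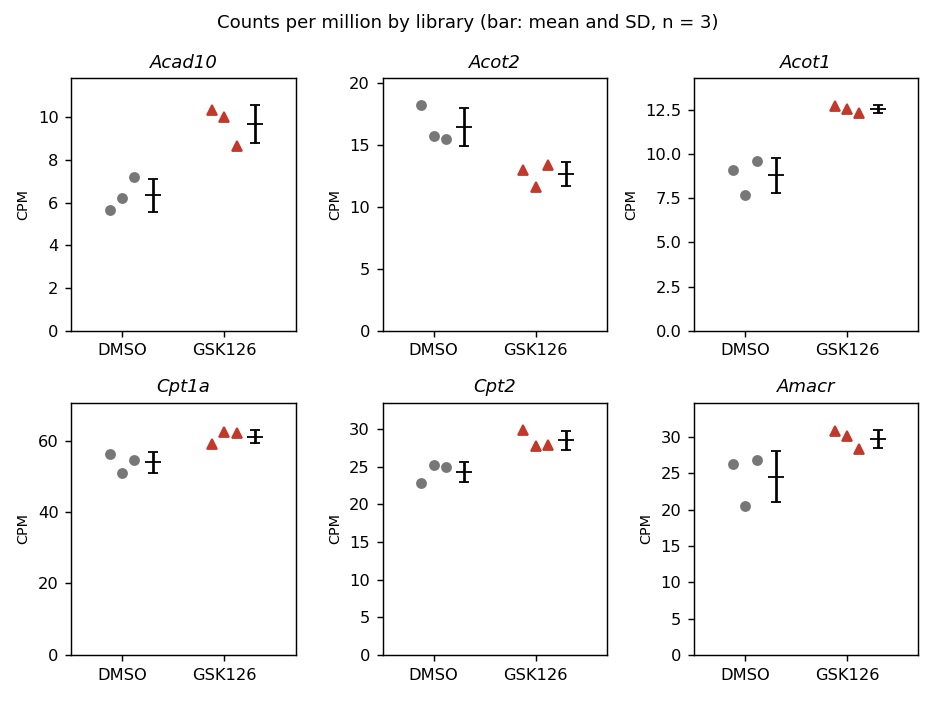
CPM in each library (grey circles, DMSO; red triangles, GSK126), with the mean and SD (n = 3) beside them, for 6 genes. The groups do not overlap in any panel: GSK126 lies above DMSO for Acad10, Acot1, Cpt1a, Cpt2 and Amacr and below it for Acot2.

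Hadha and Hadhb encode the alpha and beta subunits of the mitochondrial trifunctional protein, which carries out the last 3 reactions of the long-chain cycle. They lie head to head on chromosome 5, Hadha on the minus strand (30118304-30155162) and Hadhb on the plus strand (30155248-30184593), their starts 86 bases apart. The sequence between them (RefSeq, GRCm38.p6, chr5:30155163-30155247, plus strand) is shown with the copies of GGGCGG, the GC box, on that strand in capitals.
Hadha-Hadhb shared start region: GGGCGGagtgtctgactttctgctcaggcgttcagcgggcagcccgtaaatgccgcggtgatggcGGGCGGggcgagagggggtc
Hadha held 225, 208 and 208 CPM with DMSO and 235, 237 and 225 with GSK126, where the highest DMSO library lay just above the lowest GSK126 library. Its log2 fold change was 0.12 (SE 0.05, adjusted p = 0.169 by edgeR).

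Hadhb, singled out after its values were seen, varied more between replicates. It had 173, 241 and 368 reads with DMSO and 249, 233 and 239 with GSK126, so that its DMSO libraries spanned 2.14-fold while its GSK126 libraries were nearly level. Its log2 fold change was -0.20 (SE 0.25, interval -0.78 to 0.39, adjusted p = 0.658 by edgeR).

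A near-identical copy of Hadhb held far more reads than Hadhb itself. Gm13910, a processed pseudogene on chromosome 2 (108948806-108950233), had 1410, 1446 and 1424 reads with DMSO and 1442, 1484 and 1454 with GSK126. Its 1428-base transcript matches that of Hadhb at 99.8% with 3 mismatches, and 56.6% of the 50-base stretches of Hadhb are in it. The GENCODE M21 stretches below differ at 1 of 120 bases, in capitals, to show how little separates them.
Hadhb (transcript bases 296-415): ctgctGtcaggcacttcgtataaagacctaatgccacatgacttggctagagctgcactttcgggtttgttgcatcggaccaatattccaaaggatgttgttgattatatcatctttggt
Gm13910 (transcript bases 196-315): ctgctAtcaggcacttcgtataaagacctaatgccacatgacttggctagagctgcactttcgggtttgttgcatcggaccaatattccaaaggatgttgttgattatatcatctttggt
Summed, the reads of both were 1583, 1687 and 1792 with DMSO and 1691, 1717 and 1693 with GSK126, with a log2 fold change of -0.07 (SE 0.06, adjusted p = 0.517 by edgeR). From which of the loci the reads came was not tested, so the level of Hadhb alone is uncertain.

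Acadsb, the dehydrogenase of short branched-chain acyl-CoA, was also singled out after its values were seen. It had 397, 427 and 882 reads with DMSO and 424, 907 and 1019 with GSK126. In both groups the values split into a low and a high level, with 2 low DMSO libraries and 1 low GSK126 library. The spread within a group exceeded the difference between the groups, and the log2 fold change of 0.38 had an SE of 0.40 (interval -0.56 to 1.32, adjusted p = 0.584 by edgeR). Acadsb and Hadhb were 2 of 34 genes with at least 5 CPM on average whose replicates differed 2-fold or more within a group, or 5.88%, beside 3.41% of all tested genes at that level.

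**Figure D5:**
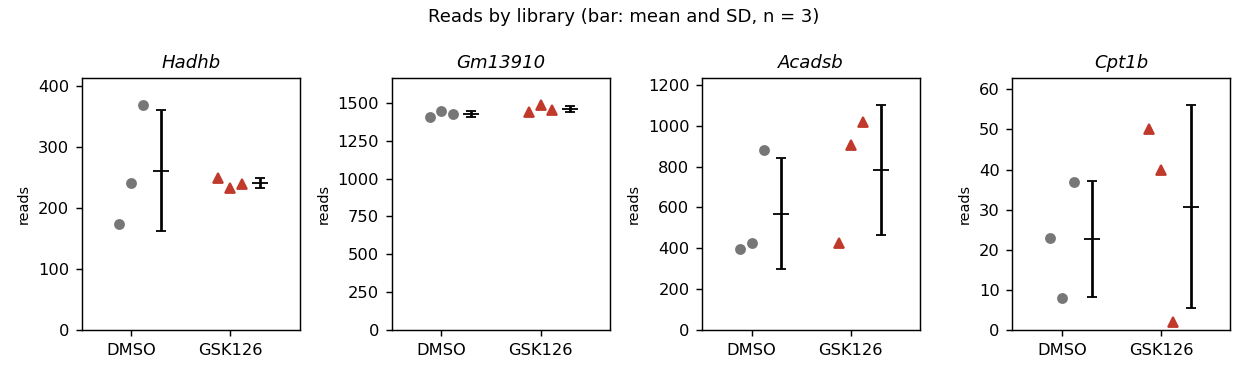
Reads per library, with the mean and SD (n = 3) beside them, for Hadhb, its pseudogene copy Gm13910, Acadsb and Cpt1b. Gm13910 is level across the 6 libraries at 1410 to 1484 reads, while Hadhb runs from 173 to 368 within DMSO and Cpt1b from 2 to 50 within GSK126.

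Eci1, an enoyl-CoA isomerase that moves the double bond of unsaturated fatty acids into place, had groups that did not overlap. It held 22.3, 22.1 and 20.5 CPM with DMSO and 26.8, 24.7 and 22.6 with GSK126 (log2 fold change 0.19, interval -0.02 to 0.40, adjusted p = 0.220 by edgeR). The other 10 genes of the step lay between -0.16 and 0.08 on the log2 scale. They were the dehydrogenases Acadvl, Acadm, Acads and Acad9, the hydratase Echs1, the hydroxyacyl-CoA dehydrogenase Hadh, the thiolase Acaa2, and the auxiliary enzymes Decr1, Eci2 and Ech1, the last of which the files describe as peroxisomal. Acadm, the medium-chain dehydrogenase, had the lowest of these values (-0.16, interval -0.36 to 0.04), and each of the 10 intervals was inside 1.5-fold.

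The electron transfer flavoprotein is made of the products of Etfa and Etfb, and its dehydrogenase, from Etfdh, passes the electrons to ubiquinone. Etfa (chromosome 9, 55454508-55512243) held 120, 122 and 120 CPM with DMSO and 124, 117 and 106 with GSK126, and Etfb held 86.1, 91.1 and 88.3 against 80.3, 92.0 and 85.9. Both overlapped between the groups, with log2 fold changes of -0.06 (SE 0.06, adjusted p = 0.581 by edgeR) and -0.04 (SE 0.06, adjusted p = 0.726 by edgeR). The subunit genes also had similar small intervals, -0.21 to 0.09 and -0.19 to 0.11. Of the 50-base stretches of Etfb, 57.7% are in the annotated gene Gm45233, which had at most 2 reads in a library.

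Etfdh (chromosome 3, 79603788-79629500) had the positive value of the step. It held 94.4, 99.9 and 87.2 CPM with DMSO and 108, 100 and 107 with GSK126, with groups apart by a narrow margin between DMSO replicate 2 and GSK126 replicate 2. The log2 fold change of 0.16 (SE 0.06, interval 0.01 to 0.31) did not pass the threshold (adjusted p = 0.149 by edgeR). It shares 278 exon bases with 4930579G24Rik on the opposite strand, and their counts summed gave 0.12 (SE 0.05, adjusted p = 0.192 by edgeR). The sources used here do not state whether counting used strand, so reads of overlapping genes cannot be told apart.

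In the peroxisome, Abcd3 imports long-chain acyl groups across the membrane. It held 153, 145 and 144 CPM with DMSO and 155, 156 and 169 with GSK126, with no overlap (log2 fold change 0.12 ± 0.05 SE, edgeR adjusted p = 0.194). Hsd17b4, the D-bifunctional protein that hydrates and dehydrogenates very long-chain and branched-chain intermediates, had the highest deposited FPKM of the step, although per kilobase of the longest transcript Abcd3 was above it (43.97 against 36.5). Its libraries held 97.3, 96.9 and 95.5 CPM against 98.0, 98.8 and 102.5, which did not overlap although the difference was small (0.05, interval -0.06 to 0.15, adjusted p = 0.547 by edgeR). Both genes were thus slightly higher in every GSK126 library, and neither passed.

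Amacr, the racemase that converts branched-chain acyl-CoA to the form the peroxisomal oxidase accepts, had the largest log2 fold change of the step. It held 26.3, 20.5 and 26.8 CPM with DMSO and 30.8, 30.0 and 28.4 with GSK126. Its groups did not overlap, and DMSO replicate 2 lay lowest by some distance (log2 fold change 0.28 ± 0.11 SE, interval 0.01 to 0.54, edgeR adjusted p = 0.166), while without that library the value was 0.16 ± 0.08 SE. Scp2, whose product includes the thiolase of branched-chain intermediates, held 65.0, 66.9 and 67.6 CPM against 77.6, 69.7 and 74.0, also without overlap (0.15, SE 0.06, adjusted p = 0.156 by edgeR). Of its 50-base stretches, 37.5% are in the pseudogene Scp2-ps2, and their summed counts gave 0.09 (SE 0.05, adjusted p = 0.354 by edgeR).

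Products leave the peroxisome as carnitine esters or as free acids. Crot, which makes the carnitine esters of medium-chain acyl groups, held 58.9, 58.8 and 57.9 CPM with DMSO and 60.0, 59.0 and 62.3 with GSK126. The groups were apart by a very small margin (log2 fold change 0.05, interval -0.08 to 0.17, adjusted p = 0.622 by edgeR). Acot8, the peroxisomal thioesterase that frees the acids, was the only peroxisomal gene with a negative value, at 9.26, 8.54 and 10.8 CPM against 9.70, 9.11 and 8.02 (-0.09, SE 0.13, adjusted p = 0.693 by edgeR). That sign turned to 0.01 without DMSO replicate 3, and Acot8 shares 246 exon bases with Snx21 on the opposite strand. The oxidase Acox3, the bifunctional enzyme Ehhadh and the thiolase Acaa1a lay between 0.04 and 0.13 on the log2 scale, with overlapping groups.

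The intervals of all 9 peroxisomal genes were inside 1.5-fold. The same was true of all 3 electron transfer genes, 5 of 6 shuttle genes and 13 of 17 genes of mitochondrial beta-oxidation. Of the 10 genes that were higher in every GSK126 library, 5 were peroxisomal, 2 belonged to the shuttle, 2 to mitochondrial beta-oxidation and 1 to electron transfer. Of all tested genes 17.6% were higher in every GSK126 library, and with 3 to 17 genes a step a difference between the steps was not tested.

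Head-to-head neighbours were also counted, and a difference from all tested genes was not tested. A protein-coding neighbour on the opposite strand started within 500 bases of 6 of the 35 genes (17.1%), beside 10.2% of the 11575 tested protein-coding genes. Hadha and Hadhb are neighbours of each other, so that pair is counted under both names. The others were Acad10 with Brap, Crat with Ptpa (226 bases), Acadsb with Ikzf5 (80 bases) and Acot8 with Zswim3 (216 bases). The adjusted p of these neighbours was 0.169 to 0.791 by edgeR. Crat, Acadvl, Echs1 and Acaa1a share 59, 1151, 142 and 290 exon bases with a gene on the opposite strand that had at least 10% as many reads (Dolpp1, Dvl2, Paox and Myd88). With those counts added, the log2 fold changes were 0.12, -0.08, -0.05 and 0.20 (edgeR adjusted p = 0.587, 0.457, 0.689 and 0.117), so each kept its sign. Of these partners, Myd88 rose on its own (0.36 ± 0.08 SE, edgeR adjusted p = 0.0385).

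The surrounding pathway was read from 7 further lists, of which 78 of 88 genes were tested. Of those, 7 rose and 2 fell, with a median log2 fold change of 0.06. That is 11.5% of the 78, beside 11.1% of all tested genes, so the count is near the background. The single lists below hold 8 to 16 tested genes each, and their counts stand beside the same 5.87% higher and 5.18% lower over all tested genes. The lists without a call were propionyl-CoA and ketone body enzymes (9 tested) and flavin supply and electron acceptors (10 tested). At an unadjusted p under 0.05 by edgeR the first had 1 higher and 1 lower, and the second 0 higher and 1 lower, beside 14.4% and 13.1% of all tested genes. DESeq2 called 1 gene of the first list higher, Oxct1, and limma-voom called no gene of either.

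Among 11 other peroxisomal oxidation genes, 1 rose, Hacl1. Hacl1 encodes the lyase that removes a carbon from branched and hydroxylated fatty acids in alpha-oxidation, ahead of the racemase Amacr. It held 8.89, 9.18 and 8.22 CPM with DMSO and 13.1, 13.1 and 13.0 with GSK126, a log2 fold change of 0.58 (SE 0.09, adjusted p = 0.0112 by edgeR). The call held with each library left out in turn (adjusted p = 0.0248 to 0.0450). Hacl1 shares 108 exon bases with Btd, and their counts summed gave 0.38 (SE 0.07, adjusted p = 0.0195 by edgeR). The median of this list was 0.22.

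Among 12 other acyl-CoA enzymes, a list not limited to mitochondrial ones, the cytosolic Acot1 rose, as described above, and Acot9 fell. The 1 higher call of this list is thus not of a mitochondrial enzyme. Acot9, a mitochondrial thioesterase, held 37.3, 33.8 and 38.5 CPM with DMSO and 22.9, 25.9 and 21.8 with GSK126 (log2 fold change -0.64 ± 0.09 SE, edgeR adjusted p = 0.00824), and the call held with each library left out. Among the tested thioesterase genes, Acot2 and Acot9 were lower and Acot1 higher with groups apart, while Acot7, Acot8 and Acot13 overlapped. Over all tested genes 34.4% had groups apart. Acot2 and Acot1 are close copies with a summed log2 fold change of -0.0018, and how their reads were assigned was not tested.

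Malonyl-CoA, the product of acetyl-CoA carboxylase, inhibits the palmitoyltransferase of the shuttle. Among 8 genes of malonyl-CoA control and carnitine supply, 2 rose. Acaca, which encodes acetyl-CoA carboxylase 1, held 98.2 to 106 CPM with DMSO and 128 to 142 with GSK126 (log2 fold change 0.40 ± 0.06 SE, edgeR adjusted p = 0.00762), and its call held with each library left out. Prkaa2, a catalytic subunit of the AMP-activated kinase that inhibits the carboxylase, rose by 0.34 (SE 0.08, adjusted p = 0.0372 by edgeR), a call that ended in all 6 fits with a library left out (adjusted p = 0.0687 to 0.116).

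Among 12 transcriptional regulators, 1 rose, the coactivator gene Ppargc1a. Its libraries held 282, 247 and 265 CPM with DMSO and 347, 347 and 407 with GSK126 (log2 fold change 0.47 ± 0.08 SE, edgeR adjusted p = 0.0126), and the call ended without DMSO replicate 2 (adjusted p = 0.0520). The nuclear receptor gene Pparg had 0 to 2 reads in a library and was not tested. Among 16 peroxisome assembly genes, 2 rose and 1 fell.

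Those 3 assembly genes moved by similar amounts. Pex7, the receptor that imports the second class of peroxisomal targeting signal, rose by 0.37 (SE 0.08, adjusted p = 0.0345 by edgeR), and Pex6, an ATPase that recycles import receptors, by 0.33 (SE 0.07, adjusted p = 0.0260). Pex14, a docking protein of the membrane, had a log2 fold change of -0.33 (SE 0.07, adjusted p = 0.0304 by edgeR). The Pex7 call ended in all 6 fits with a library left out (adjusted p = 0.0555 to 0.113). That of Pex6 ended without DMSO replicate 2, DMSO replicate 3, GSK126 replicate 1 or GSK126 replicate 2 (up to 0.0942), and that of Pex14 held only without GSK126 replicate 3 (up to 0.0916 in the other 5 fits).

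In the lists without a call, the genes with the highest deposited FPKM were Oxct1 and Rfk. Oxct1, which activates ketone bodies for oxidation, held 671, 644 and 648 CPM with DMSO and 1047, 665 and 1127 with GSK126. GSK126 replicate 2 lay within the range of the DMSO libraries and far below the other GSK126 libraries (log2 fold change 0.53 ± 0.17 SE, edgeR adjusted p = 0.0975). Oxct1 passed with DESeq2 (adjusted p = 0.00838) and, by edgeR, without GSK126 replicate 2 (0.73 ± 0.05 SE, adjusted p = 0.00214). Rfk, the kinase that makes flavin mononucleotide, differed by less than its error (-0.0078, SE 0.08, adjusted p = 0.964 by edgeR).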

How the data were processed

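RNA of 6 B16F10 samples was sequenced, 3 with DMSO and 3 with 10 µM GSK126. Per the submitters' processing notes, base calling used CASAVA 1.8, HISAT2 was the aligner and GRCm38.p4 (mm10) the genome. The counter, whether it used strand, and its annotation are not stated in those sources. The authors deposited raw counts per gene for each sample, and a table of FPKM values for those libraries. The deposited FPKM were proportional to the counts with a largest ratio between libraries of 1.000017, in 11012 genes with at least 50 reads in each library, so both are 1 measurement. Of the gene identifiers, 54723 are in GENCODE M21, 54037 of them with the same start and end, so the positions printed are those of the files.

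Samples were grouped by treatment label. Counts were tested in R 4.3.3 with edgeR 4.0.16 (filterByExpr, TMM, quasi-likelihood F test, group as the only term), which kept 13601 genes and at least 99.8674% of each library's counts. TMM factors were 0.994 to 1.007 and the biological coefficient of variation 0.119. Standard errors and 95% intervals of log2 fold changes were derived from the F statistic. P-values are two-sided, adjusted over all tested genes by Benjamini-Hochberg, with a threshold of 0.05. CPM use the TMM-scaled library sizes. The alternatives were DESeq2 1.42.0, limma 3.58.1 (voom, and log2 FPKM with a pseudocount of 1 or 0.1), RLE scaling, no filter on low values, a replicate block, each replicate left out, and summed counts of overlapping genes. Summing near-identical copies, and levels per kilobase of the longest protein-coding GENCODE M21 transcript (counts per library total), were added after seeing the data.

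On simulated counts, 100 genes changed 1.5-fold and 100 changed 2-fold, all with at least 5 CPM on average in the data. Of the 1.5-fold changes edgeR called 55, DESeq2 69, limma-voom 53 and limma on log2(CPM + 1) 54. Of the 2-fold changes they called 98, 99, 95 and 97, and of unchanged genes 16, 42, 15 and 16. A 1.5-fold change was thus often missed by edgeR. The other alternatives were not simulated. Replicates differed beyond counting noise, with chi-square over degrees of freedom of 7.60 to 14.3 in the 6 pairs within a group. Head-to-head neighbours and 50-base stretches were taken from GENCODE M21, and promoter windows from RefSeq.

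The 35 genes and the other lists were chosen with earlier results of these data known. Named with values are every gene of the 35 that passed the test, in each step the 2 with the highest mean FPKM and those with the highest and lowest log2 fold change, and every gene whose groups did not overlap. From each further list up to 3 genes that passed are named, or else the most abundant, as are Ezh2 and genes that share exons with a named gene. Crat, Hadhb, Acadsb, the remaining genes given by range and the sequence copies were added after their values were seen.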

Additional observations from a re-analysis of the deposited data

How the results depend on the processing

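DESeq2, limma-voom, RLE scaling and log2(FPKM + 0.1) left each count within 1.5 times the main value. Without a filter on low counts, genes called over the whole table fell from 798 higher and 705 lower to 463 and 436, the 35 genes from 1 higher to 0 and the further lists from 7 higher to 3. With log2(FPKM + 1) and no filter these counts were 440 and 427, 0, and 3, and the further lists had 1 lower instead of 2. More genes were tested in both. The replicate numbers of the labels did not pair the samples (correlations of deviations 0.0665, 0.0210 and -0.0420), and a replicate block gave 230 higher and 178 lower over all genes, 0 of the 35 genes, and 2 higher and 0 lower in the further lists. With 1 replicate left out, the ranges were 279 to 640 higher and 250 to 603 lower over all genes, 0 to 1 of the 35 genes higher, and 2 to 5 higher and 1 to 2 lower in the further lists. None of the 35 genes was called lower in any of these fits.

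The shuttle median was 0.13 with log2(FPKM + 1), with or without the filter. With 1 replicate left out, medians ranged from 0.12 to 0.22 for the shuttle, -0.014 to 0.090 for mitochondrial beta-oxidation, -0.068 to 0.0076 for electron transfer and 0.048 to 0.13 for peroxisomal oxidation. Signs turned for Cpt1b (-0.24 with limma-voom, -0.21 to 0.91 with 1 replicate left out, -0.065 without DMSO replicate 2), Etfb (-0.091 to 0.0076, positive without GSK126 replicate 1), Acot8 (-0.17 to 0.0062, positive without DMSO replicate 3) and Rfk (-0.065 to 0.045, positive without DMSO replicate 3, 0.040, and without GSK126 replicate 2). Of 443 alternative values of single genes, 381 kept direction and call, 53 lost the call, 2 gained it and 7 changed sign. The cause was not tested. Only a gene that passed in the main fit could lose a call, and most of these genes had not passed. The 381 therefore do not measure how stable the calls were, and all 53 lost calls fell on the genes that had passed. With the longest coding transcript as gene length, added after seeing the data, the step shares of the summed level with DMSO and GSK126 were 6.40% and 6.99% for the shuttle, 47.8% and 47.3% for mitochondrial beta-oxidation and 26.3% and 25.4% for electron transfer, and 19.5% with DMSO for peroxisomal oxidation.

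Libraries of 13594939 to 14713373 counts bounded the difference between these 6 samples within 1.5-fold for most of the 35 genes, but not for Cpt1b at 2 to 50 reads. With 3 samples a group, leaving out 1 lowers the number of calls over the whole table.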
